A study of Sus scrofa with 4 samples.

Results

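The miRNAs of the miR-17-92 cluster and of its paralogs were followed in primary pig vascular stem cells, by small RNA sequencing, before and after adipogenic induction. They were chosen by name: every pig hairpin named mir-17, mir-18, mir-19a, mir-19b, mir-20, mir-92a, mir-92b, mir-106a or mir-363, with copies of a hairpin counted as 1 miRNA. This gave 9 miRNAs of the 189 with a read in any library, and all 9 had reads in all 4 libraries. The entries mir-18 and mir-20 are older names of miR-18a and miR-20a, which are used here.

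The 4 groups held 1 library each (n = 1). IVSC MDI and IVSC were cells of the dorsal longissimus muscle, induced and not induced, and SVSC MDI and SVSC were the same pair from subcutaneous fat. All cells were at passage 1 in DMEM/F12 with 20% serum, and the labels give every group the cell type of an adipose-derived vascular stem cell, the muscle cultures too. MDI stands for insulin (5 mg/l) with the glucocorticoid dexamethasone (0.25 µM) and IBMX (0.5 mM), which blocks phosphodiesterases, given to confluent cells. IBMX and dexamethasone were taken out after 3 days, growth medium came back at day 6, and the cells were kept for 3 or 4 days more. Which of these harvest times belongs to IVSC MDI or to SVSC MDI, and whether cultures shared an animal, are not stated in the labels. The stated purpose was a comparison of miRNAs during adipogenesis in the 2 cell types.

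A miRNA cluster is a group of hairpins cut from 1 primary transcript, so its members start from equal numbers of precursors and differ in later processing and stability. The miR-17-92 cluster is switched on by MYC and is best known for promoting the cell cycle and survival, and in mouse preadipocytes it speeds adipocyte differentiation. A miRNA recognises its targets mainly through its seed, bases 2 to 8, and the 9 miRNAs fall into 4 seed groups: miR-17, miR-20a and miR-106a, then miR-18a, then miR-19a and miR-19b, then miR-92a, miR-92b and miR-363. In the pig gene table, the genes of miR-17, miR-18a, miR-19a, miR-20a, miR-19b copy 1 and miR-92a copy 1 are direct neighbours and form the miR-17-92 cluster. On the X chromosome, the genes of miR-363, miR-92a copy 2, miR-19b copy 2 and miR-106a lie in the paralog cluster, together with those of miR-20b and miR-18b, which are not analysed here. The gene of miR-92b stands apart from both.

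Abundance is given as CPM, the reads on a hairpin scaled to counts per 1000000 miRNA reads of its library, and miRNAs were compared with each other on this scale without a correction for length. The libraries held 14810112 miRNA reads in IVSC MDI, 13252168 in IVSC, 2573249 in SVSC MDI and 17937121 in SVSC. The SVSC MDI library is therefore the least precise, where the upper limit set by a count of 0, which is 3 reads, equals 1.17 CPM against 0.167 to 0.226 CPM in the others. Ranges after a value are exact 95% intervals and, like the limits, cover counting error only, because amplified reads with no molecular identifier may repeat 1 molecule. Between a pair of libraries, "rose" and "fell" stand for a ratio of at least 2-fold with an interval that leaves out 1. No pair of libraries has a replicate check or a p-value. The total of all reads, used below as another scale, sums every named feature of the deposited counts. It counts reads shared between features more than once and is not a number of distinct reads. In IVSC MDI its hairpin features sum to 15973916, against 14810112 with copies merged. Among 5 marker miRNAs of perivascular and mesenchymal cells, all were detected, at a summed 401780 CPM in IVSC MDI, 359420 in IVSC, 409080 in SVSC MDI and 262060 in SVSC. Nearly all of each sum was miR-143, with 387910 CPM in IVSC MDI, 349990 in IVSC, 390300 in SVSC MDI and 255710 in SVSC. Of 5 epithelial markers only miR-205 had a read, at 3.498 CPM or less.

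Together the 9 miRNAs made up 0.279% of the miRNA reads in IVSC MDI, 0.474% in IVSC, 0.240% in SVSC MDI and 0.339% in SVSC. miR-20a was the most abundant of them in 3 libraries and miR-92a in the SVSC MDI library. miR-106a was the scarcest in every library. Of the reads of miR-92b, 94.3% to 100% lay outside its listed mature miRNA, so its values throughout describe those reads. In IVSC MDI the order was miR-20a, miR-92a, miR-17, miR-19b, miR-18a, miR-19a, miR-92b, miR-363 and miR-106a, and only the intervals of miR-92a and miR-17 overlapped. In IVSC it was miR-20a, miR-17, miR-19b, miR-92a, miR-18a, miR-19a, miR-92b, miR-363 and miR-106a, with overlap of miR-19a and miR-92b. In SVSC MDI it was miR-92a, miR-17, miR-20a, miR-19b, miR-18a, miR-19a, miR-92b, miR-363 and miR-106a, and the neighbours miR-20a and miR-19b, miR-19a and miR-92b, and miR-363 and miR-106a overlapped. In SVSC it was miR-20a, miR-17, miR-92a, miR-18a, miR-19b, miR-363, miR-19a, miR-92b and miR-106a, again with overlap of miR-19a and miR-92b. Among all miRNAs with a read, miR-20a ranked 44th of 186 in IVSC MDI, 32nd of 187 in IVSC, 65th of 181 in SVSC MDI and 30th of 182 in SVSC. miR-106a, at the other end, ranked 150th of 186 in IVSC MDI, 136th of 187 in IVSC, 143rd of 181 in SVSC MDI and 118th of 182 in SVSC, so the members were spread widely over the abundance range.

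**Figure D1:**
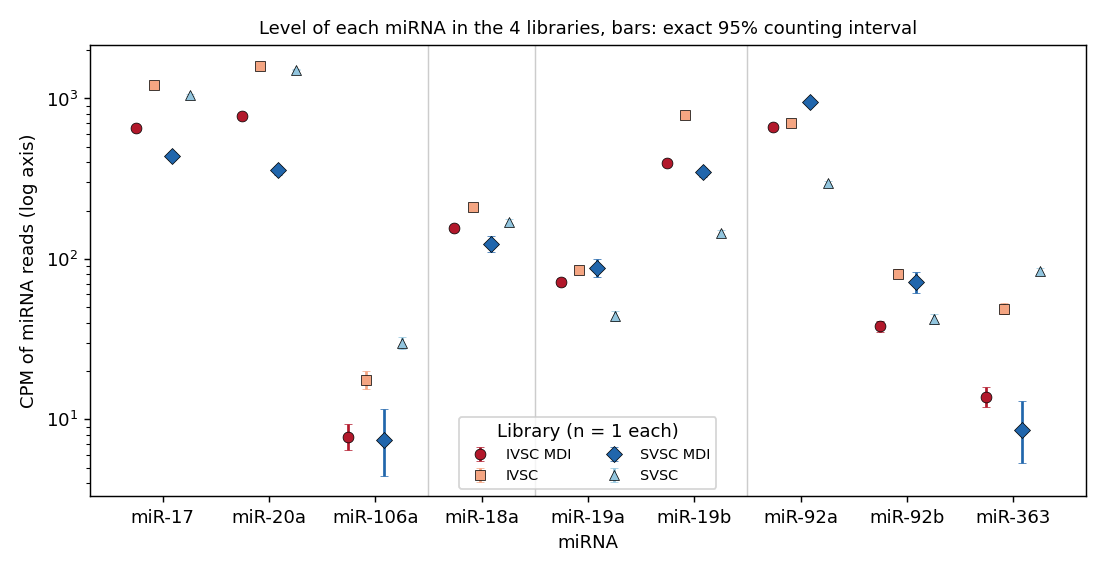
Level of each of the 9 miRNAs in the 4 libraries, as CPM of miRNA reads on a log axis, with 1 point per library and bars for exact 95% counting intervals; grey lines separate the seed groups. miR-17 and miR-20a are lowest in the MDI libraries, miR-19b and miR-92a are lowest in SVSC, and miR-363 and miR-106a are highest in SVSC.

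In the muscle cultures, the question was how the cluster responded to adipogenic induction. All 9 miRNAs had a ratio below 1, miR-92a only just and not with the total of all reads or without miR-21 as the scale, and 4 of them fell, namely miR-20a, miR-106a, miR-92b and miR-363. None rose. Of the 152 miRNAs compared in these libraries 40.1% were called, 23.7% as lower and 16.4% as higher, and the median log2 ratio was -0.999 over the 9 miRNAs and -0.04 over all. A fall in bulk RNA cannot tell fewer cells of a type from less RNA per cell.

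miR-20a, which like miR-17 represses the cell cycle inhibitor CDKN1A, had 11535 reads in IVSC MDI (779 CPM) against 21098 in IVSC (1592 CPM), a 2.04-fold fall (1.998 to 2.09). miR-17 had 9726 reads in IVSC MDI (657 CPM) and 16005 in IVSC (1208 CPM), a ratio of 0.544 (0.530 to 0.558) that did not reach 2-fold. miR-106a, their X-linked paralog, had 115 reads in IVSC MDI (7.77 CPM) against 233 in IVSC (17.6 CPM) and fell 2.26-fold (1.80 to 2.86). The 3 miRNAs of this seed were thus all lower after MDI and close to each other in size of change. miR-18a, which represses the anti-angiogenic factor thrombospondin, had 2319 reads in IVSC MDI (157 CPM) and 2795 in IVSC (211 CPM), a ratio of 0.742 (0.702 to 0.785).

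miR-19b, of the seed that drives most of the cluster's oncogenic activity in mouse lymphoma, had 5872 reads in IVSC MDI (396 CPM) and 10499 in IVSC (792 CPM). Its ratio of 0.5005 (0.485 to 0.517) lay just short of 2-fold. miR-19a, with the same seed, had 1066 reads in IVSC MDI (72.0 CPM) and 1126 in IVSC (85.0 CPM), a ratio of 0.847 (0.778 to 0.922). The pair therefore did not move alike, and the ratio of miR-19a to miR-19b was 1.69-fold higher in IVSC MDI than in IVSC (1.55 to 1.85).

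miR-92a, which restrains vessel growth in mouse models, had 9903 reads in IVSC MDI (669 CPM) and 9372 in IVSC (707 CPM), and its ratio of 0.946 (0.919 to 0.973) was the closest to 1 of the 9. miR-92b had 562 reads in IVSC MDI (37.9 CPM) against 1072 in IVSC (80.9 CPM) and fell 2.13-fold (1.92 to 2.37). Of these reads 0 in IVSC MDI and 29 in IVSC lay on the mature miRNA. miR-363, the X-linked miRNA of the same seed, had 204 reads in IVSC MDI (13.8 CPM) against 649 in IVSC (49.0 CPM) and fell 3.56-fold (3.03 to 4.18). miR-92a and miR-363, whose reads lay mostly on the mature miRNA, thus differed widely in response, and miR-363 had the lowest ratio of all 9. Some skeletal muscle markers moved between the same libraries: 5 of 6 had reads, summed to 1137 CPM in IVSC MDI and 6275 CPM in IVSC, with no read of miR-208b. miR-206 alone had 139.6 CPM in IVSC MDI and 4874 CPM in IVSC, and miR-133b fell 4.18-fold. The muscle markers miR-1, miR-133a and miR-499 were not called, at ratios of 0.710, 1.09 and 1.04. Of the 5 perivascular markers miR-145 rose 5.30-fold and miR-214 fell 2.11-fold, and the others were not called. The fall of miR-214 was not called with the total of all reads or without miR-21. Their part in the cluster's values was not tested. Under 4 other scalings 1 to 5 of the 9 fell and none rose, and miR-363 was the only one to fall under all 5. With all reads of the file as the total, 34 of all miRNAs rose and 24 fell, against 25 and 36 in CPM of miRNA reads.

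In the subcutaneous cultures the same induction split the miRNAs into lower and higher ones. miR-17, miR-20a, miR-106a and miR-363 fell, while miR-19a, miR-19b and miR-92a rose. Of the 146 miRNAs compared 56.2% were called, 21.9% as lower and 34.2% as higher, and the median log2 ratio was -0.46 over the 9 and 0.41 over all. miR-20a had 919 reads in SVSC MDI (357 CPM) against 27143 in SVSC (1513 CPM), a 4.24-fold fall (3.97 to 4.53). miR-17 had 1134 reads in SVSC MDI (441 CPM) against 18990 in SVSC (1059 CPM) and fell 2.40-fold (2.26 to 2.55). miR-106a had 19 reads in SVSC MDI (7.38 CPM) against 533 in SVSC (29.7 CPM), a 4.02-fold fall (2.55 to 6.74). All of this seed fell, and miR-17 by least. miR-18a had 319 reads in SVSC MDI (124 CPM) and 3059 in SVSC (171 CPM), a ratio of 0.727 (0.646 to 0.816).

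miR-19b had 891 reads in SVSC MDI (346 CPM) against 2599 in SVSC (145 CPM) and rose 2.39-fold (2.21 to 2.58). miR-19a had 227 reads in SVSC MDI (88.2 CPM) against 789 in SVSC (44.0 CPM), a 2.01-fold rise (1.72 to 2.33) just past the threshold. Both miRNAs of the miR-19 seed thus stood higher after MDI. miR-92a had 2458 reads in SVSC MDI (955 CPM) against 5356 in SVSC (299 CPM) and rose 3.20-fold (3.05 to 3.36). miR-92b had 184 reads in SVSC MDI (71.5 CPM) and 759 in SVSC (42.3 CPM), a ratio of 1.69 (1.43 to 1.99). Of these reads 1 in SVSC MDI and 43 in SVSC lay on the mature miRNA. miR-363 had 22 reads in SVSC MDI (8.55 CPM) against 1504 in SVSC (83.8 CPM), a 9.81-fold fall (6.45 to 15.7). It moved opposite to miR-92a, with which it shares its seed.

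The choice of scaling bears on the rises. TMM, DESeq2 size factors, the total of all reads and miRNA reads without miR-21 lowered every log2 ratio of this pair by 0.50, 0.43, 0.49 and 0.40, and under each of them miR-92a alone rose, whereas all 4 falls held under all 5 scalings. Among all miRNAs, 50 rose and 32 fell in CPM of miRNA reads, against 36 and 45 with TMM or the total of all reads, and 38 and 42 with the other scalings. On reads that match the listed mature miRNA exactly, the log2 ratio was 0.14 for miR-19a and 0.07 for miR-19b, and 1.25 for miR-92a. Perivascular markers also moved: miR-145, miR-199a and miR-199b rose, 3 of 5, and miR-145 alone under the 4 other scalings, added for the lists after seeing the data. Of the skeletal muscle markers miR-133a rose 9.18-fold, miR-133b rose 12.2-fold and miR-1 fell 2.75-fold, and the list summed to 888 CPM in SVSC MDI and 1853 CPM in SVSC. The blood marker miR-142 had 19.4 CPM in SVSC MDI and 5.41 CPM in SVSC. The blood list, 3 of 5 detected with miR-144 and miR-223 without a read, summed to 25.6 CPM in SVSC MDI and 10.8 CPM in SVSC. Their part in the cluster's values was not tested.

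**Figure D2:**
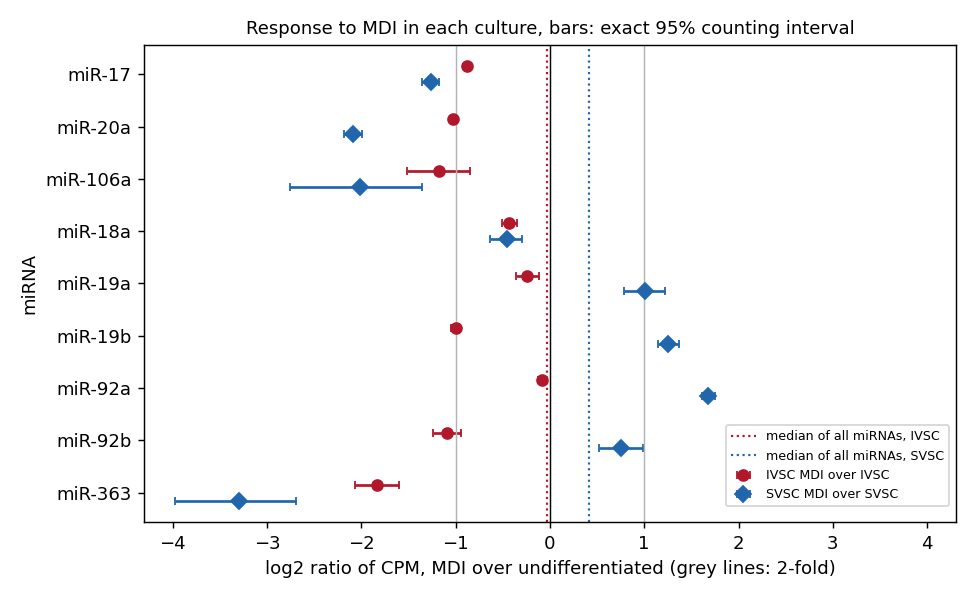
log2 ratio of CPM after MDI over before, for each of the 9 miRNAs, in the muscle cultures (circles, IVSC MDI over IVSC) and the subcutaneous cultures (diamonds, SVSC MDI over SVSC), with exact 95% counting intervals and 1 library per group. Grey lines mark 2-fold and dotted lines the median of all miRNAs. The circles all lie left of 0 (that of miR-92a not so with the total of all reads or without miR-21 as the scale), and the diamonds of miR-19a, miR-19b, miR-92a and miR-92b lie right of it.

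The response of SVSC was set against that of IVSC as a difference of log2 ratios, SVSC minus IVSC, with a 95% interval from counting error. It was 2.26 for miR-19b (2.14 to 2.37), 1.85 for miR-92b (1.57 to 2.12), 1.76 for miR-92a (1.68 to 1.84) and 1.24 for miR-19a (0.998 to 1.49). These 4 had ratios on opposite sides of 1 in the 2 cultures, miR-92a not so with the total of all reads or without miR-21 as the scale. The difference was -1.46 for miR-363 (-2.11 to -0.82) and -1.05 for miR-20a (-1.15 to -0.95), both lower after MDI in either culture and further so in SVSC. The difference for miR-106a was -0.83 (-1.56 to -0.10) and that for miR-17 was -0.39 (-0.48 to -0.29). For miR-18a the interval, -0.21 to 0.15 around -0.03, held 0. No test between cultures is possible with these 4 libraries. Another scaling shifts all 9 differences by the same amount. With TMM they were 1.79 for miR-19b, 1.38 for miR-92b, 1.29 for miR-92a and 0.78 for miR-19a, and -1.93 for miR-363, -1.52 for miR-20a, -1.29 for miR-106a and -0.85 for miR-17, with no change of sign. For miR-18a the difference was then -0.50 (-0.68 to -0.31), and -0.73 (-0.92 to -0.55) with the total of all reads, so that its interval held 0 only in CPM of miRNA reads and not under these 2 scalings.

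Ratios between miRNAs of 1 library do not depend on scaling, so they show how the cluster's make-up differed. The seed of miR-17, miR-20a and miR-106a took 51.8% of the reads of the 9 miRNAs in IVSC MDI and 59.4% in IVSC, and 33.6% in SVSC MDI and 76.8% in SVSC. The seed of miR-92a, miR-92b and miR-363 took 25.8% in IVSC MDI and 17.7% in IVSC, and 43.2% in SVSC MDI and 12.5% in SVSC. The miR-19 seed took 16.8% in IVSC MDI and 18.5% in IVSC, and 18.1% in SVSC MDI and 5.58% in SVSC. The share of miR-18a stayed between 4.45% and 5.61% in the 4 libraries. With MDI the share of the miR-17 seed was thus smaller and that of the miR-92 seed larger in both cultures, and the gap was wider in SVSC.

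**Figure D3:**
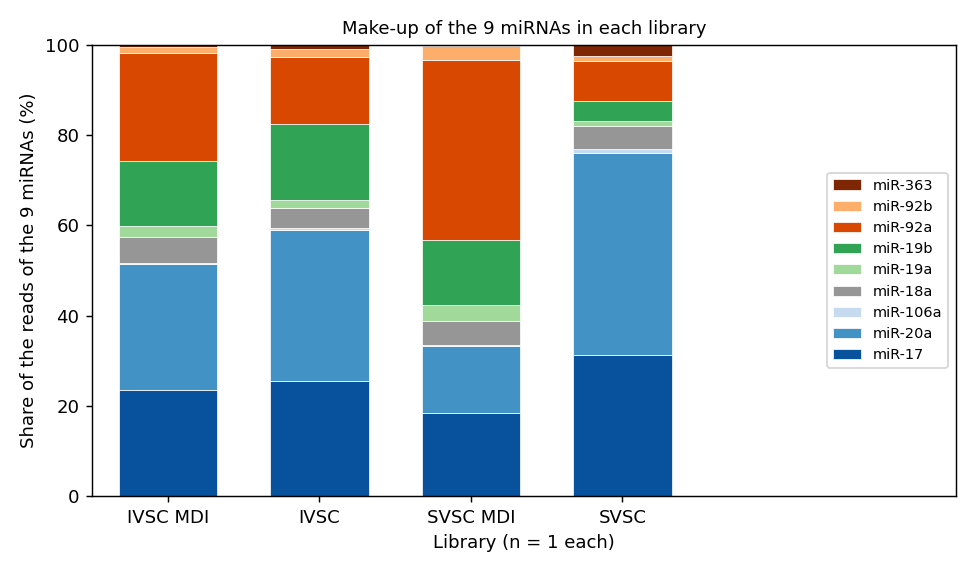
Share of each miRNA among the summed reads of the 9 miRNAs, in percent, with 1 stacked bar per library. Blue shades are the miR-17 seed, grey is miR-18a, green the miR-19 seed and orange to brown the miR-92 seed; miR-92a takes 39.8% of the SVSC MDI bar and 8.82% of the SVSC bar.

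For each read of miR-17 there were 1.02 reads of miR-92a in IVSC MDI (0.990 to 1.05) and 0.586 in IVSC (0.571 to 0.601), and 2.17 in SVSC MDI (2.02 to 2.33) and 0.282 in SVSC (0.274 to 0.291). The ratio was therefore 1.74-fold higher in IVSC MDI than in IVSC (1.67 to 1.81) and 7.69-fold higher in SVSC MDI than in SVSC (7.12 to 8.30). Against miR-20a the ratio of miR-92a was 1.93-fold higher in IVSC MDI than in IVSC and 13.6-fold higher in SVSC MDI than in SVSC. miR-17 and miR-92a come from the first and the last hairpin of the same cluster. The ratio of miR-19b to miR-17 was 0.920-fold that of IVSC in IVSC MDI (0.884 to 0.959), and 5.74-fold that of SVSC in SVSC MDI (5.21 to 6.32). The ratio of miR-18a to miR-17, neighbouring hairpins, was 1.37-fold higher in IVSC MDI than in IVSC and 1.75-fold higher in SVSC MDI than in SVSC. Within their shared seed, miR-20a had 1.19 reads per read of miR-17 in IVSC MDI and 1.32 in IVSC, and 0.810 in SVSC MDI and 1.43 in SVSC. miR-17 exceeded miR-20a in the SVSC MDI library alone.

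The 6 miRNAs of the miR-17-92 cluster spread less in the muscle than in the subcutaneous pair. Their log2 ratios with MDI ran between -1.03 and -0.08 in IVSC, with an SD over the 6 of 0.41, beside an SD of 1.22 over all 152 miRNAs. In SVSC they ran between -2.08 and 1.68, with an SD of 1.52, beside 1.64 over all 146. These SDs describe members of a set and are not replicate error. For miR-19b and miR-92a they include reads from both clusters, since most reads of these miRNAs match both copies.

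A small part of the miR-92a reads matched only 1 of its 2 copies. Such reads numbered 1413 for copy 1 (in the miR-17-92 cluster) and 35 for copy 2 (in the X-linked cluster) in IVSC MDI, against 757 and 45 in IVSC. They numbered 347 and 8 in SVSC MDI, against 597 and 28 in SVSC. Of these unique reads alone, copy 1 held 97.6% in IVSC MDI, 94.4% in IVSC, 97.7% in SVSC MDI and 95.5% in SVSC. Scaled to depth, unique reads of copy 1 were 1.67-fold higher in IVSC MDI than in IVSC (1.53 to 1.83) and 4.05-fold higher in SVSC MDI than in SVSC (3.54 to 4.63). They made up 8.15% to 14.4% of the mature reads of copy 1, so most of miR-92a cannot be assigned to a copy. Reads that match the listed mature miRNA exactly numbered the same for both copies in IVSC MDI (8044) and in IVSC (8090). The unique reads thus deviate from the listed sequence. Whether their change is one of the copy or of read ends or bases was not tested. For miR-19b unique mature reads were at most 4 for copy 1 and 51 for copy 2 in a library, too few to divide it. Reads on the rest of the hairpin of miR-19b copy 1 numbered 344 in IVSC MDI and 306 in IVSC, a ratio of 1.01 (0.860 to 1.18), and 61 in SVSC MDI and 152 in SVSC, a ratio of 2.80 (2.04 to 3.79).

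miR-363 and miR-106a, the X-linked miRNAs with no copy elsewhere, were both lower after MDI in both cultures and highest in SVSC. All mature reads of miR-363 were unique to it. Of those of miR-106a, 81.8% were unique in IVSC MDI, 79.4% in IVSC, 52.9% in SVSC MDI and 87.7% in SVSC. The values of miR-106a thus include reads that may belong elsewhere. No mature read of miR-106a matched its listed sequence exactly in any library, and whether variant reads of miR-17 are among them was not tested. The nearest counterpart of each miRNA by profile was looked for as the smallest root mean square difference of centred log2 CPM over the 4 libraries, among 143 other miRNAs of at least 10 CPM on average, the other members included. For miR-363 the nearest was miR-106a (0.53), followed by miR-130b (0.54) and miR-320 (0.58). The reverse did not hold: miR-106a was nearest to miR-320 (0.20) and miR-421 (0.28), and among the members to miR-17 (0.46). The ratio of miR-363 to miR-106a was 1.77 in IVSC MDI (1.40 to 2.25) and 2.79 in IVSC (2.39 to 3.25), and 1.16 in SVSC MDI (0.598 to 2.26) and 2.82 in SVSC (2.55 to 3.12). miR-363 thus fell further than miR-106a in both cultures.

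By the same measure miR-17 lay nearest to miR-130a (0.13) and miR-152 (0.17), and miR-20a to miR-4331 (0.15) and miR-130b (0.26), each with higher levels before MDI. miR-18a lay nearest to miR-340 (0.11) and miR-26a (0.14), and miR-19a to miR-450a (0.08) and miR-199a (0.11). miR-92a lay nearest to miR-484 (0.17) and miR-23a (0.19), and miR-92b to miR-15b (0.11) and miR-497 (0.13). miR-19b lay nearest to miR-142 (0.37) and miR-494 (0.39), both lowest in SVSC. Apart from miR-363, no member had another member as its nearest counterpart, and the distance between miR-17 and miR-20a was 0.31. With 4 points a profile is a description only.

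Between the origins, the uninduced cells differed most in miR-19b. It had 145 CPM in SVSC against 792 CPM in IVSC and was 5.47-fold lower in SVSC (5.24 to 5.71), and it was lower under all 5 scalings. miR-92a had 299 CPM in SVSC against 707 CPM in IVSC and was 2.37-fold lower in SVSC (2.29 to 2.45). These 2 of 9 passed 2-fold downwards and none upwards, where 28.4% of the 148 miRNAs compared were called, 20.9% as lower in SVSC and 7.43% as higher. The median log2 ratio was -0.31 over the 9 and -0.25 over all.

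The X-linked miRNAs leaned the other way, at ratios of SVSC to IVSC of 1.71 for miR-363 (1.56 to 1.88) and 1.69 for miR-106a (1.45 to 1.98). miR-20a stood at 0.951 (0.934 to 0.968), miR-17 at 0.877 (0.858 to 0.895) and miR-18a at 0.809 (0.768 to 0.851), and all 3 turn to ratios above 1 with TMM, DESeq2 size factors or without miR-21, miR-20a with the total of all reads too. miR-92b at 0.523 (0.476 to 0.575) and miR-19a at 0.518 (0.472 to 0.568) came close to 2-fold. With TMM, DESeq2 size factors or without miR-21, every log2 ratio of this pair went up by 0.35, 0.37 or 0.33, miR-363 and miR-106a then passed 2-fold upwards, and miR-92a no longer passed downwards. Among all miRNAs, 11 were higher and 31 lower in SVSC in CPM of miRNA reads, against 23 and 28 with TMM or without miR-21, 27 and 24 with DESeq2 size factors, and 14 and 29 with the total of all reads. Markers of other cells moved too, and their part in these values was not tested: skeletal muscle markers summed to 1853 CPM in SVSC and 6275 CPM in IVSC, the endothelial miR-126 had 52.6 CPM in SVSC and 134 CPM in IVSC, and the blood markers summed to 10.8 CPM in SVSC and 39.9 CPM in IVSC. The muscle markers were not alike. miR-206 had 2.79 CPM in SVSC and 4874 CPM in IVSC, and miR-133a and miR-133b were 3.61-fold and 51.4-fold lower in SVSC. miR-1 went the other way, with 1817.8 CPM in SVSC and 1241.5 CPM in IVSC, and miR-499 had a ratio of 0.721 that was not called.

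After MDI the origins differed in miR-20a, with 357 CPM in SVSC MDI against 779 CPM in IVSC MDI, 2.18-fold lower in SVSC MDI (2.04 to 2.33). It was the only call among the 8 miRNAs compared, since miR-106a lay under 10 CPM in both libraries, and 27.9% of all 147 miRNAs were called, 10.2% as lower and 17.7% as higher in SVSC MDI. miR-92b had a ratio of SVSC MDI to IVSC MDI of 1.88 (1.59 to 2.23), miR-92a of 1.43 (1.37 to 1.49), which is below 1 with the total of all reads, and miR-19b of 0.873 (0.813 to 0.937). miR-19b thus lay closer between the origins after MDI than before it. The median log2 ratio was -0.27 over the 8 and 0.13 over all. Among all miRNAs 26 were higher and 15 lower, against 21 and 20 with TMM, 19 and 21 without miR-21, and 7 and 33 with the total of all reads. With that total miR-17 and miR-363 passed downwards as well. Markers differed here too, and their part was not tested: miR-206 had 4 reads in SVSC MDI (1.55 CPM) and 2068 in IVSC MDI (139.6 CPM), miR-133a was 2.32-fold and miR-214 2.20-fold higher in SVSC MDI, and skeletal muscle markers summed to 888 CPM in SVSC MDI and 1137 CPM in IVSC MDI.

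A model over all 4 libraries, with origin and MDI state as factors, gave the effect of MDI shared by both cultures. In edgeR's quasi-likelihood test with Benjamini-Hochberg adjustment over 179 miRNAs, miR-363 fell by 2.69 on the log2 scale (SE 0.89, adjusted p = 0.0331) and miR-20a by 1.72 (SE 0.58, adjusted p = 0.0361). Both were lower in 2 of 2 cultures. These 2 of 9 stand beside 4.47% of all miRNAs that fell and 6.15% that rose in the same test. miR-17 had a log2 ratio of -1.24 (SE 0.56, adjusted p = 0.143 in edgeR) and miR-106a of -1.74 (SE 0.97, adjusted p = 0.265 in edgeR), and neither passed. miR-18a had a log2 ratio of -0.61, miR-92b of -0.34, miR-19b of -0.04, miR-19a of 0.21 and miR-92a of 0.63, none of them called. The model left 1 residual degree of freedom, so the spread was in effect shared by all miRNAs. With no replicate in any group, that degree of freedom measures how far the MDI response differed between the origins. Spread between animals is not part of the p-values. Both calls were lost with library totals in place of TMM, at adjusted p = 0.0611 for miR-363 and 0.0564 for miR-20a in edgeR. Over all alternatives the adjusted p, in edgeR or DESeq2, ran between 0.000871 and 0.130 for miR-363 and between 0.0111 and 0.161 for miR-20a.

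For origin, SVSC over IVSC in both MDI states, the same edgeR test called 0 of the 9 miRNAs and 2.79% of all. At an unadjusted p under 0.05 it called 0 of the 9 as well, and DESeq2 called 0. miR-19b had the lowest log2 ratio, -1.16 (SE 0.61, adjusted p = 0.383 in edgeR).

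The reads on a hairpin were then divided by where they lay. No member had a read on the star strand as deposited. For every member but miR-92b most reads lay on the mature miRNA. For miR-92b 100% of the 562 reads in IVSC MDI and 97.3% of the 1072 in IVSC fell elsewhere on the hairpin, as did 99.5% of the 184 in SVSC MDI and 94.3% of the 759 in SVSC. Its mature reads numbered 0 in IVSC MDI, 29 in IVSC, 1 in SVSC MDI and 43 in SVSC. Its values above thus describe reads outside the listed mature miRNA. The mature form lay under the CPM filter and was not compared. Its reads were fewer after MDI in both cultures. In muscle the MDI library was the larger one, with 14810112 miRNA reads against 13252168 in IVSC. In the subcutaneous cultures it was the smaller one, with 2573249 against 17937121 in SVSC. On all its reads, miR-92b had a ratio of 1.69 in SVSC MDI over SVSC. The change of the mature form was not tested.

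Of the mature reads, the share that matched the listed sequence exactly differed strongly between members. miR-17 had 86.0% in IVSC MDI and 91.5% in IVSC, and 75.1% in SVSC MDI and 92.6% in SVSC. miR-92a copy 1 had 82.0% in IVSC MDI and 87.1% in IVSC, and 81.2% in SVSC MDI and 83.7% in SVSC. miR-20a, the most abundant member in all libraries but SVSC MDI, had 3.14% in IVSC MDI and 1.39% in IVSC, and 5.03% in SVSC MDI and 0.646% in SVSC. Nearly all of its reads thus deviated from the listed mature miRNA in their ends or bases, which the files do not separate. miR-106a had 0 exact reads among 88 mature reads in IVSC MDI, 199 in IVSC, 17 in SVSC MDI and 470 in SVSC. The median over all miRNAs with at least 10 mature reads was 44.0% in IVSC MDI, 49.8% in IVSC, 50% in SVSC MDI and 49.3% in SVSC.

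With MDI the exact share of the miR-19 seed dropped in both cultures. miR-19a had 50.9% in IVSC MDI (47.8 to 54.0) and 80.3% in IVSC (77.8 to 82.6), and 51.6% in SVSC MDI (44.8 to 58.2) and 71.5% in SVSC (68.2 to 74.7). miR-19b copy 1 had 50.1% in IVSC MDI (48.8 to 51.4) and 77.3% in IVSC (76.4 to 78.1), and 48.7% in SVSC MDI (45.3 to 52.2) and 83.6% in SVSC (82.0 to 85.0). The MDI libraries lie close to each other and apart from the uninduced ones for both miRNAs. The median change over all miRNAs was -0.56 percentage points in IVSC MDI and -0.78 in SVSC MDI, and 24 of 154 and 30 of 125 miRNAs dropped by more than 10 points. For miR-18a the share was higher after MDI, at 16.4% in IVSC MDI and 7.97% in IVSC, and 10.0% in SVSC MDI and 5.56% in SVSC, where the intervals of SVSC MDI (6.80 to 14.0) and SVSC (4.76 to 6.44) did not overlap. miR-20a also had higher shares after MDI, and its exact reads alone gave a log2 ratio of 0.22 in IVSC MDI and 0.46 in SVSC MDI, opposite to its fall on all reads but from only 356 and 290 reads in IVSC MDI and IVSC, and 45 and 174 in SVSC MDI and SVSC.

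**Figure D4:**
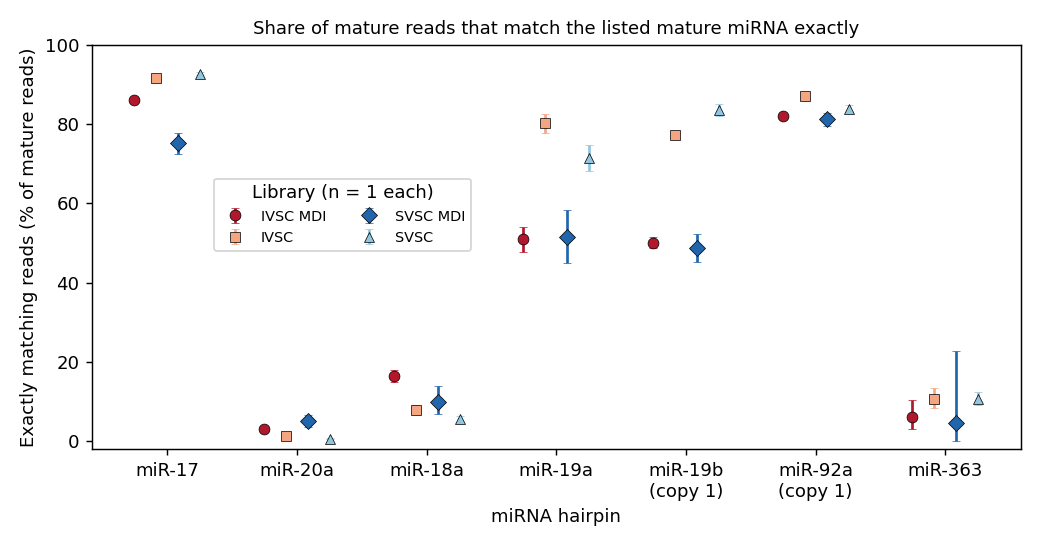
Share of mature reads that match the listed mature miRNA exactly, in percent, for 7 hairpins in the 4 libraries, with exact 95% binomial intervals; miR-106a (0 in all) and miR-92b (few mature reads) are not drawn. For miR-19a and miR-19b the MDI libraries lie at 48.7% to 51.6% and the uninduced ones at 71.5% to 83.6%.

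Other miRNAs of cell growth were set beside the cluster. Of 9 miRNAs listed as growth-promoting, 6 had a read and 5 could be compared. In IVSC MDI miR-130b and miR-221 fell, 2 of 5, by 3.15-fold and 4.47-fold, and in SVSC MDI miR-130b fell, 1 of 5, by 3.75-fold. These shares, 40% and 20%, stand beside 23.7% and 21.9% of all miRNAs. None of the list rose, and its median log2 ratio was -0.35 in IVSC MDI and -0.75 in SVSC MDI. miR-221, which represses the cell cycle inhibitor CDKN1B, had a ratio of 0.505 in SVSC MDI, just short of a call. Each of the 4 other scalings gave 3 falls of 5 there, of miR-130b, miR-21 and miR-221. That share, 60%, stands beside 28.8% to 30.8% of all miRNAs that fell under these scalings. Of 19 listed as growth-restraining, among them miR-145 of the perivascular list, 16 were compared. In CPM of miRNA reads, miR-145, miR-34a and miR-34c rose and miR-15b, miR-195 and miR-503 fell in IVSC MDI, while let-7e, miR-145 and miR-34a rose and let-7a fell in SVSC MDI. This was 3 of 16 higher and 3 lower in IVSC MDI (18.8% each, beside 16.4% and 23.7% of all miRNAs), and 3 higher and 1 lower in SVSC MDI (18.8% and 6.25%, beside 34.2% and 21.9%). In SVSC MDI the other scalings gave 2 higher, without let-7e, and 4 lower, with miR-15a, miR-34c and miR-503 added. This was 12.5% higher and 25% lower, beside 24.7% to 26.0% and 28.8% to 30.8% of all miRNAs. With the total of all reads miR-503 alone fell in IVSC MDI (6.25%, beside 15.8% of all miRNAs). miR-34a, a target of p53, had 512 CPM in IVSC MDI and 149 CPM in IVSC, and 865 CPM in SVSC MDI and 192 CPM in SVSC. The median log2 ratio of this list was 0.17 in IVSC MDI and 0.44 in SVSC MDI. Between the uninduced origins, miR-221 of the first list was lower in SVSC than in IVSC in CPM of miRNA reads but under none of the other scalings. Of the second list let-7a was higher in SVSC under all 5, and miR-503 lower under all but DESeq2 size factors.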

How the data were processed

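Per the labels' protocols, small RNAs of 16 to 35 nt from about 10 µg of total RNA were ligated to adapters, amplified with 12 PCR cycles and read for 36 cycles. Per the file headers, the authors deposited 1 table of read counts per library, over 4 resources (pig hairpins, Ensembl non-coding RNAs of the pig, piRNAs and Rfam), with total reads per feature and reads that are mature, exactly mature, uniquely mature, star or other. Aligner, mismatches and trimming are not given in the sources used, and the submitters' processing notes name the build mm9 without a role. One column of the SVSC table holds damaged values in some Rfam entries and was used for hairpins only. Features without a resource name (1 in SVSC MDI, 3 in SVSC) were left out. The pig gene table, of another assembly, served for names and neighbours only.

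From these counts the total reads of a miRNA were taken as those of its largest copy plus the unique mature reads of any further copy and scaled to CPM. miRNAs of at least 10 CPM in 1 of the 2 libraries were compared, with Clopper-Pearson intervals conditional on both counts (SciPy 1.17.1, Python 3.11.15, pandas 2.3.3, NumPy 2.4.6) and calls at 2-fold with an interval without 1. A count of 0 in a ratio was set to 3 reads. edgeR 4.0.16 (R 4.3.3, limma 3.58.1; filterByExpr, TMM, quasi-likelihood F test, adjusted p under 0.05) fitted all 4 libraries with origin and MDI state, with an infinite prior df. SEs were worked back from F. DESeq2 1.42.0 was the other tool. The edgeR fit was tested on simulated counts, with a preset spread that was not estimated from these libraries and an MDI effect equal in both origins. Alternatives were 4 other scalings, mature or exact reads, other treatments of copies, and other filters. Figures were drawn with matplotlib 3.10.9.

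The 9 miRNAs were given by name, and they and the growth and marker lists were chosen with earlier results of these data known. All 9 are described. The other miRNAs named are the lists' members and, for each of the 9, the 2 others nearest in profile.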

Additional observations from a re-analysis of the deposited data

Results flagged for a closer look

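For 4 of the 9 miRNAs the single library pairs of the 2 cultures moved in opposite directions with MDI. For miR-92a this held in CPM of miRNA reads, but not with the total of all reads or without miR-21 as the scale. The log2 ratio in SVSC minus that in IVSC was 2.26 for miR-19b, 1.85 for miR-92b, 1.76 for miR-92a and 1.24 for miR-19a. The difference between cultures was not tested, since each group is 1 library. For miR-92b the reads lie almost wholly outside the listed mature miRNA.

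Reads of these families were also listed under Rfam, which the comparisons leave out. The largest Rfam entry of the mir-92 family held 2467 reads in IVSC MDI and 1827 in IVSC, and 592 in SVSC MDI and 1344 in SVSC. That of the mir-17 family held 201 in IVSC MDI and 202 in IVSC, and 126 in SVSC MDI and 137 in SVSC. That of the mir-19 family held 45 in IVSC MDI and 153 in IVSC, and 9 in SVSC MDI and 60 in SVSC. All exceed the 3 reads that a count of 0 allows. Whether they repeat hairpin reads is not stated in the files.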

How the results depend on the processing

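The edgeR fits hold the other factor as a block, so that MDI is compared within each culture, and the labels give no further replicate numbers to pair. With no such block, that is with the other factor left out, edgeR called 0 miRNAs for MDI (38 at an unadjusted p under 0.05) and 0 for origin (10 unadjusted), and so 0 of the 9 for MDI, against 19, 5 and 2. For MDI, mature reads gave 31 calls and DESeq2 gave 35, which include miR-20a and miR-363, and for origin DESeq2 gave 10. With library totals 0 of the 9 were called for MDI, and the small edgeR log2 ratios of miR-19b for MDI and of miR-92b for origin turned to 0.13 and -0.015. Rises in SVSC MDI numbered 1 with TMM, DESeq2 size factors, all reads, reads without miR-21 and exact reads, against 3. Falls in SVSC MDI numbered 2 with exact reads and with a filter at 100 CPM, against 4. Falls in IVSC MDI numbered 1 with all reads and at 100 CPM, and 2 with mature or exact reads, against 4. In SVSC over IVSC, 2 were higher and 1 lower with TMM, DESeq2 size factors and without miR-21, against 0 and 2. In SVSC MDI over IVSC MDI, 3 were lower with all reads and 2 with exact reads, against 1. Only miR-20a on exact reads reversed a call, to log2 ratios of 0.22 (IVSC MDI) and 0.46 (SVSC MDI). The cause of these shifts was not tested, beyond the fewer miRNAs that the stricter filter leaves. With copies summed, which counts shared reads of miR-19b and miR-92a more than once, the miR-17 seed took 38.6%, 45.7%, 22.8% and 68.7% of the reads in IVSC MDI, IVSC, SVSC MDI and SVSC, and the miR-92 seed 34.5%, 24.1%, 52.2% and 18.1%. On mature reads the miR-17 seed took 52.5%, 60.2% and 77.9% in IVSC MDI, IVSC and SVSC, and the miR-92 seed 25.4%, 16.5% and 11.6%. Depth limits miR-106a and miR-363 in SVSC MDI, at 19 and 22 reads. Leaving out a replicate was not possible with 1 library per group.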
